A study of Mus musculus with 2 samples.

Results

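Vpreb3 positive B cells are described here as they were found in 2 single-cell RNA libraries of mouse spleen. A barcode was a member when it had at least 500 genes, at most 10% mitochondrial counts, at least 4 UMIs of Cd79a and Cd79b together, at most 1 UMI of Cd3d, Cd3e and Cd3g together, under 20 UMIs of Jchain, no UMI of Fcer2a, under 2 UMIs of Cr2 and at least 1 UMI of Vpreb3. A UMI, or unique molecular identifier, is the tag by which 1 captured transcript is counted once. The rule found 499 cells among 16424 barcodes past the gene and mitochondrial filters and 16731 deposited barcodes. Of the 499, 383 were in the fl/fl library and 116 in the +/+ library. The members were chosen from their own transcript counts, so the levels of the genes in the rule are given as a description.

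The study sorted CD4+ FoxP3+ regulatory T cells (Treg cells) from the spleen of Foxp3YFP-CreKmt2dfl/fl mice, here fl/fl, and of Foxp3YFP-CreKmt2d+/+ mice, here +/+. In fl/fl mice both copies of Kmt2d, which encodes an H3K4 methyltransferase, carry loxP sites; in +/+ mice both are intact. Both groups carry the Cre recombinase with YFP at the Foxp3 locus, so Cre is made where Foxp3 is active. Each group was 1 library of cells pooled from 3 mice, made with a droplet-based 3' kit, and the labels give no age, sex or strain background. B cells are not what the sort was set to collect. They made up 14.5% of filtered barcodes in fl/fl and 6.48% in +/+, and the sort's purity cannot be told apart from the genotype. With 1 library per group no test across replicates was possible, and every interval below is a 95% interval that covers counting error only.

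As background, B cells leave the bone marrow as immature cells that carry IgM and become follicular or marginal zone B cells in the spleen through transitional stages. Cells of the early transitional stage carry CD93 and much CD24 and little CD23, which Fcer2a encodes, or CD21, which Cr2 encodes. They gain IgD, CD21 and CD23 as they mature. Vpreb3 encodes a small protein of the endoplasmic reticulum that binds immunoglobulin chains and is made in pre-B and immature B cells. It is related to Vpreb1 and Vpreb2, which form the surrogate light chain with Igll1.

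The gene that defines the class lies at chr10:75943057-75949657 on the plus strand (GRCm38, GENCODE M21). Its promoter is shown because the rule turns on this gene's transcripts. The sequence covers 250 bases before and 50 bases from the RefSeq start, chr10:75948050-75948349, plus strand (RefSeq, GRCm38.p6), and its capitals mark the octamer ATTTGCAT, the motif that octamer factors such as Oct2 bind in immunoglobulin promoters.

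Vpreb3: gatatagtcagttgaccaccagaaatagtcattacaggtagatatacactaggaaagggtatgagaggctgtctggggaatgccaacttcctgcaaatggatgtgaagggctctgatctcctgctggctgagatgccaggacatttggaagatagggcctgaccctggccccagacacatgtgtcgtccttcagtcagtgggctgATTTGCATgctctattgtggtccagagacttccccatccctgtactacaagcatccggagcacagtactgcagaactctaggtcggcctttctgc

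The octamer stood once, from base -45 to base -38 before the start, on the gene's own strand. Both strands were searched, as ATTTGCAT and ATGCAAAT. Of 32851 RefSeq promoter windows of the same kind, 570 (1.74%) held it.

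The members held few transcripts of T cells, the cells the sort was set to collect. Foxp3 had 0 UMIs in the members of both libraries, which allows a level of up to 1.5 CPM in fl/fl and 4.96 CPM in +/+. CPM is the gene's count scaled to a total of 1e+06 UMIs of the summed cells. The 15 T cell markers summed to 105 CPM in fl/fl members and 82.6 CPM in +/+ members, against 8821 and 9573 CPM in the T cells of those libraries, and 3 of the 15 were at 0 in each library's members. By the rule, 19 fl/fl members and 6 +/+ members held 1 UMI of a Cd3 gene. The markers of NK cells summed to 90.7 CPM in fl/fl and 76.0 CPM in +/+, those of erythroid cells and platelets to 34.1 and 14.9 CPM, and those of dendritic cells to 200 and 169 CPM. A doublet score called 1 of the 383 fl/fl members and 0 of the 116 +/+ members a doublet. No member's barcode was in the other library, where 15 filtered barcodes were in both.

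The members' 383 fl/fl cells held 1996078 UMIs, with a median of 3603 per cell, and the 116 +/+ cells held 605052, with a median of 3987. Of the other B cells in the same gate, which is the rule without its last 3 conditions, 478 fl/fl and 245 +/+ cells had a UMI of Fcer2a and are called Fcer2a positive. Another 152 fl/fl and 67 +/+ cells had at least 2 UMIs of Cr2 and none of Fcer2a and are called Cr2 positive. The remaining 235 fl/fl and 77 +/+ cells had no UMI of Fcer2a or Vpreb3 and under 2 of Cr2. The median mitochondrial share was 3.5% in fl/fl members and 4.35% in +/+ members.

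Vpreb3 positive cells made up 30.7% of the gate in fl/fl (28.1 to 33.3%; 383 of 1248 cells), against 23% in +/+ (19.4 to 26.9%; 116 of 505). The 2 intervals did not overlap. Fcer2a positive cells were 38.3% of the gate in fl/fl (35.6 to 41.1%) and 48.5% in +/+ (44.1 to 53.0%), also without overlap. The Cr2 positive cells, at 12.2% in fl/fl and 13.3% in +/+, had intervals that overlapped. Among all filtered barcodes the members were 4.44% in fl/fl (4.01 to 4.89%) and 1.49% in +/+ (1.23 to 1.78%). That share moves with the share of all B cells in the library, which the share of the gate leaves aside.

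Since a UMI is easier to miss in a shallow cell, every gate cell was thinned to 2000 UMIs and the rule for Fcer2a, Cr2 and Vpreb3 applied again. The share was then 31.7% in fl/fl (29.2 to 34.4%) and 24.3% in +/+ (20.6 to 28.3%), still without overlap. Leaving out cells shallower than that removed 7 fl/fl and 3 +/+ cells. With at least 2 UMIs of Vpreb3 the shares were 23.4% in fl/fl and 15.6% in +/+, and with up to 1 UMI of Fcer2a allowed they were 39.9% in fl/fl and 31.3% in +/+. The fl/fl share was the higher one under each of the alternatives tried. How far the difference exceeds that between pools of mice of 1 genotype was not tested.

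**Figure D1:**
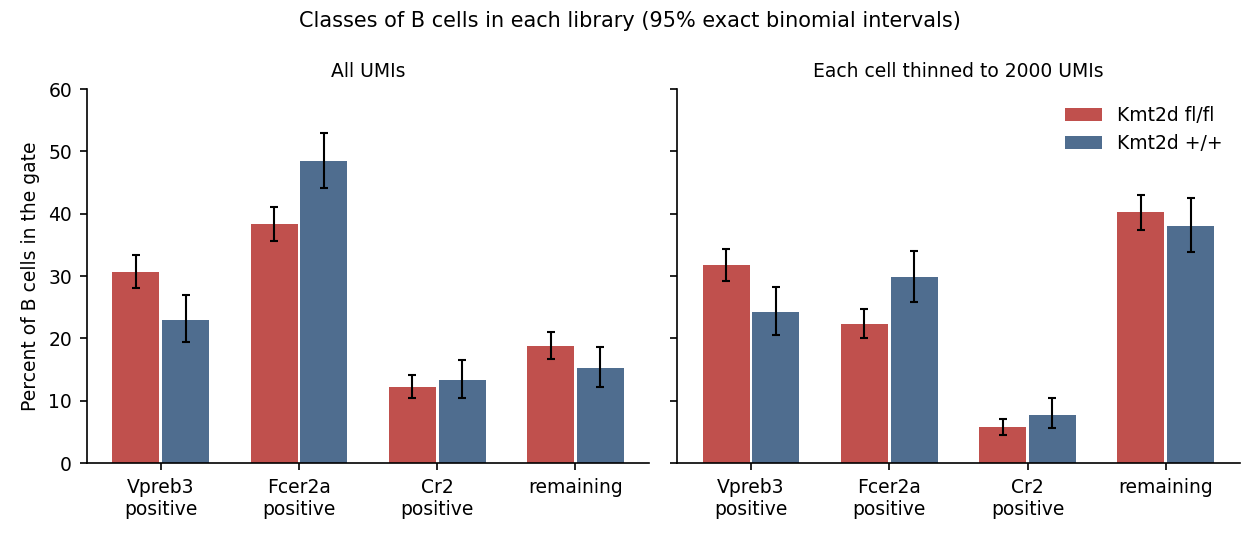
Percent of B cells in the gate (vertical axis) in each of the 4 classes, for the fl/fl library (red, left bar) and the +/+ library (blue, right bar), with all UMIs (left panel) and with each cell thinned to 2000 UMIs (right panel); bars carry 95% exact binomial intervals. Vpreb3 positive cells were 30.7% in fl/fl and 23% in +/+ with all UMIs, and 31.7% and 24.3% after thinning.

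Vpreb3 transcripts were not confined to the members. A UMI of Vpreb3 was also found in 59.4% of the fl/fl and 58.4% of the +/+ Fcer2a positive cells, and in 46.1% and 40.3% of the Cr2 positive cells. In T cells the share was 0.16% in fl/fl and 0.20% in +/+, at median depths of 6283 and 5565 UMIs, against 3603 and 3987 in the members, so the shares in B cells stood far above those in T cells. After thinning to 1500 UMIs, 69.7% of fl/fl and 61.7% of +/+ members still held a Vpreb3 UMI, against 31.8% of Fcer2a positive cells in either library. By level, Vpreb3 was at 1012 CPM in fl/fl and 762 CPM in +/+ members, at 281 and 318 CPM in the Fcer2a positive cells and at 164 and 115 CPM in the Cr2 positive cells. The rule used this gene, so its height in the members is no result.

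The threshold of 1 UMI took in cells of unlike kind. Of the members, 91 fl/fl and 37 +/+ cells had exactly 1 Vpreb3 UMI, 55 and 21 had 2, 108 and 30 had 3 to 5, and 129 and 28 had 6 or more. The median was 4 UMIs in fl/fl and 2.5 in +/+, and the highest counts were 37 and 18. Just outside, the fl/fl cells with no Vpreb3 UMI had 270 CPM of Cd24a and 458 CPM of Ighd, and the +/+ ones 267 and 328 CPM. Just inside, the cells with 1 UMI had 248 CPM of Cd24a and 639 CPM of Ighd in fl/fl, and 275 and 507 CPM in +/+. So by these 2 genes the cells just inside the threshold resembled those just outside it more than they did the members with 6 or more UMIs, which had 624 CPM of Cd24a and 218 CPM of Ighd in fl/fl and 774 and 246 CPM in +/+. By Ly6d and Ighm this did not hold in fl/fl. With 0, 1 and 6 or more Vpreb3 UMIs, fl/fl cells had 1515, 2345 and 2855 CPM of Ly6d and 2723, 3105 and 3136 CPM of Ighm. In +/+ it did hold, with 1713, 1976 and 5076 CPM of Ly6d and 3044, 2483 and 4570 CPM of Ighm. The fl/fl members with 3 to 5 UMIs had more of both than those with 6 or more, 3993 CPM of Ly6d and 3763 CPM of Ighm. The last fl/fl bin held 812188 UMIs in 129 cells, with a median of 3293 per cell, and summed levels weigh cells by their UMIs. The part of its deepest cells in these levels was not tested.

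Other genes also differed between the first and the last of these bins in both libraries, though the bins between them did not always stand in order. Cd93, the receptor whose AA4.1 epitope defines transitional cells, was at 9.19 CPM in fl/fl cells with 1 Vpreb3 UMI and 33.2 CPM in those with 6 or more, and at 4.83 and 67.0 CPM in +/+. Sox4, a transcription factor of early B cell development, was at 11.5 and 72.6 CPM in fl/fl and at 19.3 and 104 CPM in +/+. H2-Aa, a class II MHC chain, ran the other way and had 3071 and 1458 CPM in fl/fl and 3502 and 1399 CPM in +/+. Cd83, a surface protein of activated and mature B cells, had 239 and 98.5 CPM in fl/fl and 280 and 104 CPM in +/+. Rag1, which encodes a subunit of the recombinase that joins immunoglobulin segments, was at 6.89 and 17.2 CPM in fl/fl and at 0 and 22.3 CPM in +/+, on few counts. In the 2 middle bins, +/+ members had 0 and 18.9 CPM of Cd93 and 9.52 and 25.2 CPM of Sox4, and fl/fl members 0 and 12.2 CPM of Rag1.

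**Figure D2:**
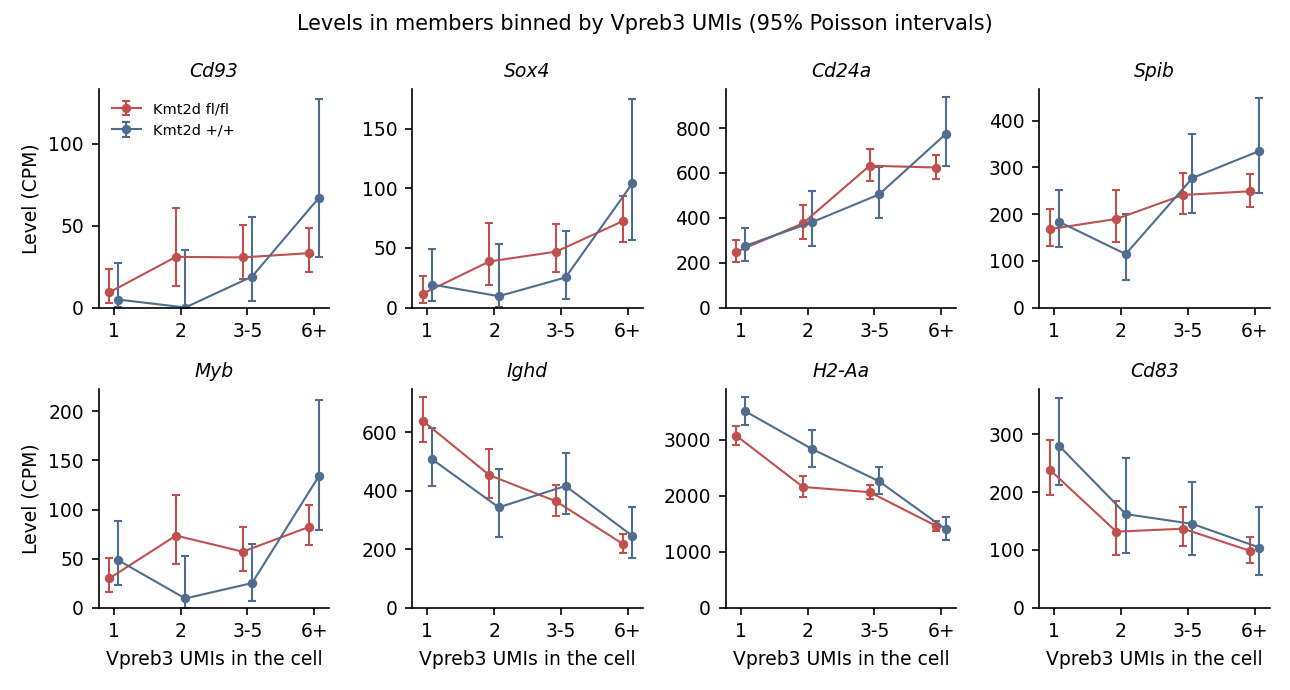
Levels in CPM (vertical axes) of 8 genes in members with 1, 2, 3 to 5 and 6 or more Vpreb3 UMIs (horizontal axes), for the fl/fl library (red) and the +/+ library (blue), with 95% Poisson intervals. Cd24a was at 248 CPM in fl/fl and 275 CPM in +/+ cells with 1 Vpreb3 UMI, and at 624 CPM in fl/fl and 774 CPM in +/+ cells with 6 or more, while Ighd, H2-Aa and Cd83 were lower in the last bin than in the first in both libraries.

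The markers given for the class were set against the Fcer2a positive cells. Ly6d, a GPI-anchored surface protein of the B lineage, was at 2988 CPM in fl/fl and 3122 CPM in +/+ members, against 1750 and 2077 CPM in Fcer2a positive cells. Ms4a1, which encodes CD20, was at 1279 and 1297 CPM in fl/fl and +/+ members, against 947 and 968 CPM. Spib, an Ets family transcription factor of B cells, was at 221 and 230 CPM, against 120 and 168 CPM. All 3 were therefore higher in the members than in Fcer2a positive cells of the same library, but Ms4a1 by less than 1.5-fold in both libraries and Spib by less than that in +/+, and they were present in every B cell class. After thinning to 1500 UMIs, Ly6d was found in 89.6% of fl/fl and 92.2% of +/+ members and in 81.4% and 87.3% of Fcer2a positive cells, against 0.37% and 0.25% of T cells.

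Of the 20 genes listed for immature and transitional B cells, 7 were measured against the Fcer2a positive cells, that is, at 100 CPM or more in either class in each library. Of these 7, 3 were at least 1.5-fold higher in members than in Fcer2a positive cells in both libraries with intervals excluding 1 (Vpreb3, Ly6d and Cd24a), and 0 were lower. Vpreb3 is among the 3 by the rule that chose the members. Over all genes, 28 of 1650 (1.7%) were higher and 25 (1.52%) were lower by that measure. Against the Cr2 positive cells 7 genes of the list were also measured. There Vpreb3, again by the rule, and Spib were higher in both libraries and 0 were lower, so Ly6d and Cd24a did not pass. Over all genes 7.62% were higher and 4.78% lower in that comparison. Cd24a, which encodes the glycoprotein CD24, was at 512 CPM in fl/fl and 464 CPM in +/+ members, against 263 and 294 CPM in Fcer2a positive cells.

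The rarer markers of the list had fewer counts. Of these, Cd93, Sox4, Myb, Akap12 and Rag1 were higher in members than in Fcer2a positive cells in both libraries. Cd93 was at 27.1 CPM in fl/fl and 21.5 CPM in +/+ members, against 5.28 and 5.60 CPM in Fcer2a positive cells. Sox4 was at 48.6 and 38.0 CPM, against 9.86 and 9.33 CPM, and Myb, a transcription factor of progenitors, at 63.6 and 54.5 CPM, against 20.8 and 13.1 CPM. Akap12, a scaffold protein of kinase A, was at 97.7 CPM in fl/fl and 97.5 CPM in +/+ members, against 15.5 and 22.4 CPM. Rag1 had 23 UMIs in 13 fl/fl members and 4 UMIs in 3 +/+ members and none in Fcer2a positive or Cr2 positive cells. Set against 3 counts in the summed Fcer2a positive cells of its library, its level was 10.9-fold higher in fl/fl members and 3.54-fold higher in +/+ members. These folds leave out the counting error of the members' own 23 and 4 UMIs, so they are not lower limits.

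The genes of the earlier pre-B stage were at or near 0. Vpreb2 and Dntt, which encodes the nucleotide-adding enzyme TdT, had 0 UMIs in the members of both libraries. Vpreb1 had 3 UMIs in fl/fl and 1 in +/+, and Igll1 had 1 in fl/fl and 0 in +/+. Il7r, the receptor of the cytokine that drives pro-B and pre-B cells, was at 14.5 CPM in fl/fl members and 4.96 CPM in +/+ members, the +/+ level resting on 3 UMIs, against 190 and 229 CPM in T cells.

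A UMI of Cd93, Sox4 or Rag1 was found in 81 fl/fl members (21.1%; 17.2 to 25.6%) and 20 +/+ members (17.2%; 10.9 to 25.4%). The same held for 7.32% of fl/fl and 6.53% of +/+ Fcer2a positive cells, which were deeper. The T cells had 12.1% in fl/fl and 6.95% in +/+, mostly through Sox4, so the share is no measure for setting B cells against T cells. The intervals of the fl/fl and +/+ members overlapped. Among fl/fl members, those with such a UMI had 1508 CPM of Vpreb3 and 753 CPM of Cd24a, and those without had 878 and 447 CPM. Among +/+ members the 2 groups had 805 and 750 CPM of Vpreb3 and 447 and 469 CPM of Cd24a, so for Vpreb3 and Cd24a the split seen in fl/fl was not seen in +/+.

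**Figure D3:**
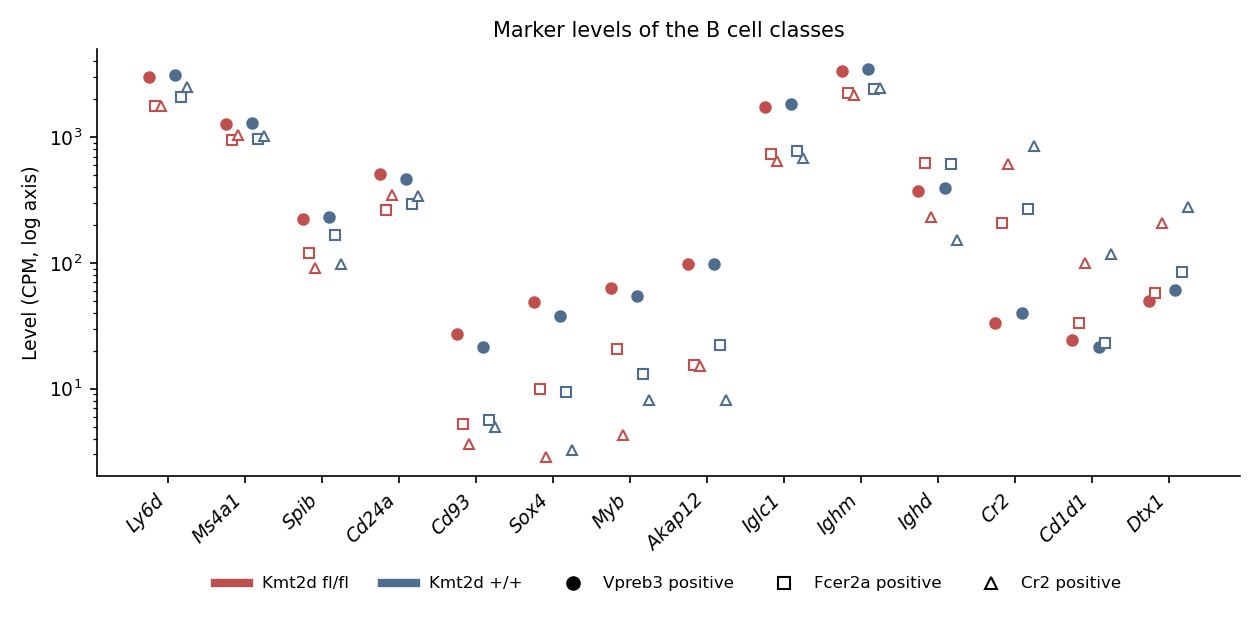
Levels in CPM (log axis) of 14 marker genes in Vpreb3 positive (filled circles), Fcer2a positive (squares) and Cr2 positive B cells (triangles), with fl/fl in red at the left and +/+ in blue at the right of each gene. Cd93, Sox4, Myb and Akap12 were higher in the members than in both other classes, for example Akap12 with 97.7 CPM in fl/fl and 97.5 CPM in +/+ members against 15.5 and 22.4 CPM in Fcer2a positive cells; Cr2, Cd1d1 and Dtx1 were highest in the Cr2 positive cells.

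IgM transcripts were higher and IgD transcripts lower in the members than in Fcer2a positive cells. Ighm, the constant gene of IgM, was at 3333 CPM in fl/fl and 3497 CPM in +/+ members, against 2257 and 2396 CPM in Fcer2a positive cells. Ighd, that of IgD, was at 376 and 397 CPM in fl/fl and +/+ members, against 623 and 607 CPM. In Cr2 positive cells Ighd was at 231 and 151 CPM. Zfp318, a nuclear protein needed for IgD to be made, was at 69.1 and 79.3 CPM in members and at 122 and 144 CPM in Fcer2a positive cells. Zfp318 and Ighd were both among the 25 genes that were lower in the members in both libraries.

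Light chains differed between the classes as well. Iglc1, the constant gene of lambda 1, was at 1736 CPM in fl/fl and 1828 CPM in +/+ members, against 732 and 781 CPM in Fcer2a positive cells and 650 and 686 CPM in Cr2 positive cells. The cell with the most held 299 of the 3466 Iglc1 UMIs in fl/fl and 228 of the 1106 in +/+ members. After thinning 61.1% of fl/fl and 54.8% of +/+ members held an Iglc1 UMI, against 33.9% and 32.2% of Fcer2a positive cells. More lambda than kappa UMIs were counted in 27.2% of fl/fl members (22.8 to 31.9%) and 25% of +/+ members (17.4 to 33.9%). That share was 16.7% in fl/fl and 13.9% in +/+ Fcer2a positive cells, and 21.1% and 25.4% in Cr2 positive cells. The 2 libraries did not differ beyond counting error in the members. Reads of Iglc1, Iglc2 and Iglc3, which are near copies, may be split between them in the authors' counting, so their single levels are uncertain.

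The 10 genes furthest above Fcer2a positive cells in both libraries were Agbl1, Cecr2, Lmo4, Vpreb3, Pafah1b3, Iglc1, Egr1, Mctp2, Ppm1e and Sox5. Agbl1, a carboxypeptidase of the cytosolic family, was at 428 CPM in fl/fl and 347 CPM in +/+ members, against 79.2 and 102 CPM. In the remaining B cells Agbl1 was at 279 CPM in fl/fl and 310 CPM in +/+, so against those cells the +/+ members had a log2 ratio of 0.16 (-0.14 to 0.47). Agbl1 was found in 151 of the 383 fl/fl and 39 of the 116 +/+ members. Cecr2, a bromodomain protein of chromatin remodelling complexes, was at 258 and 223 CPM, against 77.5 and 89.6 CPM. Lmo4, a LIM-domain transcription cofactor, was at 173 and 126 CPM, against 46.1 and 53.5 CPM, and Pafah1b3, a subunit of an acetylhydrolase, at 168 and 162 CPM, against 60.2 and 54.1 CPM. Cecr2 and Agbl1 were also higher in the fl/fl members with a Cd93, Sox4 or Rag1 UMI, with 555 CPM of Cecr2 and 687 CPM of Agbl1, than in those without, with 177 and 359 CPM. In +/+ members the corresponding levels were 350 CPM of Cecr2 and 723 CPM of Agbl1 with such a UMI, and 187 and 240 CPM without.

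The 10 furthest below were Fcer2a and Cr2, which the rule used, and Stat4, St6galnac3, Stap1, Cd83, Plaur, Setbp1, Zfp318 and Myc. Stat4, a transcription factor of cytokine signalling, was at 48.1 CPM in fl/fl and 95.9 CPM in +/+ members, against 147 and 216 CPM in Fcer2a positive cells. Cd83 was at 143 and 185 CPM, against 268 and 319 CPM, and Myc, a driver of growth, at 74.1 and 66.1 CPM, against 124 and 131 CPM. Of the 15 follicular markers, 14 were measured in that comparison. In members 7 were lower, among them Fcer2a, Ighd, Cr2, Bank1, Gpr183 and Zfp318, and 0 were higher. Over all genes 1.52% were lower and 1.7% higher. The rule fixed the place of Fcer2a and Cr2. Gpr183, the receptor that guides B cells to the outer follicle, was at 296 and 383 CPM, against 583 and 622 CPM.

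Against the Cr2 positive cells the members differed more widely, and 129 of 1693 genes (7.62%) were higher and 81 (4.78%) lower in both libraries. Cr2 positive cells are the deepest of the classes, with medians of 7296 UMIs in fl/fl and 8493 in +/+. Of 20 marginal zone markers 16 were measured, and 12 of these were lower in members, among them Cr2, whose place the rule fixed, and Cd1d1, Dtx1, Cd9, Marcks, Fcrl5 and Cd36. Of the 15 follicular markers 12 were measured here, and 5 were higher in members, Ighd among them. The only 1 lower was Cr2. So low follicular markers set the members apart from Fcer2a positive cells but not from Cr2 positive cells. Cd1d1, which presents lipids, was at 24.6 CPM in fl/fl and 21.5 CPM in +/+ members, against 100 and 118 CPM. Dtx1, a Notch pathway ubiquitin ligase, was at 49.6 and 61.2 CPM, against 208 and 281 CPM. Ackr3, an atypical chemokine receptor, was at 10.5 and 6.61 CPM, against 134 and 179 CPM. Bach2, a repressor that holds B cells from plasma cell fate, stood the other way, at 1936 CPM in fl/fl and 1856 CPM in +/+ members against 693 and 443 CPM. Against the remaining B cells, 48 of 1633 genes (2.94%) were higher and 23 (1.41%) lower.

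Cycling cells were a part of the class. At least 10 UMIs of the cell cycle list were found in 34 fl/fl members (8.88%; 6.23 to 12.2%) and 8 +/+ members (6.90%; 3.02 to 13.1%). The share was 4.39% in fl/fl and 4.90% in +/+ Fcer2a positive cells, and 11.2% and 11.9% in Cr2 positive cells, both deeper classes. In remaining B cells it was 4.26% and 6.49%. After thinning to 1500 UMIs, a UMI of Mki67 or Top2a was found in 7.05% of fl/fl and 3.48% of +/+ members. In T cells, thinned alike, it was 5.75% in fl/fl and 3.73% in +/+. In Fcer2a positive cells it was 4.39% and 2.45%, in Cr2 positive cells 2.63% and 5.97%, and in remaining B cells 2.55% and 5.19%. Without thinning the members' shares were 12.3% and 7.76%, and those of T cells 17.6% and 10.7%. Of the 34 fl/fl cells 10, and of the 8 +/+ cells 3, held a UMI of Cd93, Sox4 or Rag1. UMIs of 2 or more of 6 germinal centre genes were held by 8 of the 34 fl/fl cells and 2 of the 8 +/+ cells.

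In the fl/fl library 9 members had over 20000 UMIs, and in the +/+ library none, which allows a share of up to 2.59% there. These 9 cells, 2.35% of the fl/fl members, held 15% of their UMIs and 49.5% of their cell cycle UMIs. All 9 had at least 10 cell cycle UMIs and none was called a doublet, but whether any held 2 B cells was not tested. Cells of over 20000 UMIs were present in both libraries among the Fcer2a positive cells, 14 in fl/fl and 8 in +/+. Of these, 13 in fl/fl and 6 in +/+ also had at least 10 cell cycle UMIs, a count not scaled to depth. Since levels were summed over cells, the counts of genes by genotype are given with and without the 9 cells, and so are the ratios of the class's markers and of the genes of dividing cells.

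By genotype, the members of the 2 libraries had a median log2 ratio of -0.04, fl/fl over +/+, over 1842 genes of at least 100 CPM in either library. Of these, 85 (4.61%) were higher and 53 (2.88%) lower by at least 1.5-fold with an interval excluding 1. Without the 9 largest fl/fl cells, 28 of 1809 genes (1.55%) were higher and 35 (1.93%) lower. Of the 85 higher genes 22 remained so, and of the 53 lower genes 29 did. A gene that fell under 100 CPM did not count as remaining. The ratio changed sign in 2 of the 85 and 0 of the 53. Scaled by the median ratio of the genes at 100 CPM or more in both libraries, a shift of -0.04, 109 were higher and 36 lower. These counts follow a rule of size and count no changed genes by a test.

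None of the class's own markers passed the fold between the libraries. Of the 7 measured genes of the immature and transitional list, 0 were past 1.5-fold in either direction, with a median log2 ratio of -0.02. Ly6d had a log2 ratio of -0.06 (-0.14 to 0.01), Ms4a1 of -0.02 (-0.14 to 0.10), Spib of -0.05 (-0.33 to 0.23) and Cd24a of 0.14 (-0.05 to 0.34). Without the 9 largest fl/fl cells Ly6d was at 0.12 (0.05 to 0.20), Ms4a1 at 0.09 (-0.03 to 0.21), Spib at 0.09 (-0.19 to 0.38) and Cd24a at 0.24 (0.05 to 0.44), so the first 3 lay on the other side of 0 and all 4 stayed under the fold. Vpreb3 itself had a log2 ratio of 0.41 (0.26 to 0.56), which the higher Vpreb3 counts per fl/fl member already contain, and of 0.55 without the 9 cells. With the 4 bins of Vpreb3 UMIs weighted alike in the 2 libraries, a calculation added after the data had been seen, the ratio of Vpreb3 was -0.035. As the bins are set by Vpreb3 UMIs, a ratio of Vpreb3 near 0 was largely fixed in advance and is no result. Of 21 measured B lineage transcription factors 0 passed the fold, with a median of -0.05, and of 6 measured immunoglobulin constant genes 0 passed, with a median of -0.07.

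The largest ratios above 0 were mostly of genes of dividing cells. Of the 19 genes of the cell cycle list in the data, 6 were measured. All 6 were higher in fl/fl (Top2a, Pcna, Ube2c, Stmn1, Tuba1b and Hmgb2), with a median log2 ratio of 1.37. Over all measured genes 4.61% were higher. In +/+ members Top2a, Ube2c and Stmn1 had 46.3, 43.0 and 79.3 CPM, so they were measured through fl/fl only. The filter thus partly set this count and median. The whole list summed to 2653 CPM in fl/fl and 1026 CPM in +/+ members. Without the 9 largest cells 4 of the list were measured, 1 of them was past the fold and the median was 0.55. Top2a and Ube2c, then at 93.7 and 70.7 CPM in fl/fl, fell under the minimum with ratios still past the fold. Top2a, the topoisomerase of replicating chromosomes, had 156 CPM in fl/fl and 46.3 CPM in +/+ members, a log2 ratio of 1.75 (1.19 to 2.36), and 93.7 CPM in fl/fl without the 9 cells, a ratio of 1.02 (0.43 to 1.65). Hmgb2, a chromatin protein, had 1091 CPM in fl/fl and 455 CPM in +/+ members, a ratio of 1.26 (1.08 to 1.45). Without the 9 cells its ratio was 0.55 (0.36 to 0.75), under 1.5-fold. Cks1b and Cks2, subunits of cyclin-dependent kinases, Ube2c, a ubiquitin-conjugating enzyme of mitosis, Stmn1, a regulator of microtubules, and the linker histone H1f5 had log2 ratios from 1.47 to 2.19, and from 0.72 to 1.20 without the 9 cells.

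Pclaf, which encodes a partner of the replication clamp PCNA, stood apart from the other genes of dividing cells. It had 518 UMIs in 25 fl/fl members, 260 CPM, and 4 UMIs in 3 +/+ members, 6.61 CPM, a log2 ratio of 5.29 (3.93 to 7.18). Without the 9 largest cells the ratio of Pclaf was 4.04 (2.66 to 5.93). In the members with at least 10 cell cycle UMIs it was at 901 CPM in the 34 fl/fl cells and 28.8 CPM in the 8 +/+ cells, where Top2a was at 513 CPM in fl/fl and 230 CPM in +/+. In the Fcer2a positive cells Pclaf was at 144 CPM in fl/fl and 66.6 CPM in +/+, and in T cells at 64.5 and 47.6 CPM. The +/+ level in the members rests on 4 UMIs in a library with few dividing members.

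The other genes among the 12 highest were Acadl, Hpf1, Pkm and S100a9. Acadl, a mitochondrial enzyme of fatty acid oxidation at chr1:66830839-66863277, had 136 CPM in fl/fl and 61.2 CPM in +/+ members, a log2 ratio of 1.15 (0.65 to 1.69), and 1.19 without the 9 cells. It was spread over 159 fl/fl and 29 +/+ members. Hpf1, a cofactor of PARP1, had 130 and 59.5 CPM, a ratio of 1.12 (0.62 to 1.67), and Pkm, a pyruvate kinase, 128 and 51.2 CPM, a ratio of 1.32 (0.78 to 1.91). Without the 9 cells these were 0.78 for Hpf1 and 0.69 for Pkm.

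S100a9, a neutrophil protein, had 112 CPM in fl/fl and 24.8 CPM in +/+ members, but 220 of its 224 fl/fl UMIs were in 1 cell. Likewise 254 of the 258 UMIs of the macrophage gene Lyz2 in +/+ members were in 1 cell, where fl/fl members had 5.51 CPM and +/+ members 426 CPM. The neutrophil list summed to 207 CPM in fl/fl and 57.8 CPM in +/+ members, and the macrophage list to 18.5 and 496 CPM. No UMI of the neutrophil list was found in 364 fl/fl and 98 +/+ members, and none of the macrophage list in 361 and 103. Of the 7 neutrophil genes 1 was at 0 in either library, and of the 11 macrophage genes 4 in fl/fl and 1 in +/+. Without members that held 10 or more UMIs of these lists the log2 ratio of S100a9 was -2.77, that of Lyz2 -2.19 and that of S100a6, a calcium-binding protein, -1.70 in place of -2.22. S100a6 had 39.1 CPM in fl/fl and 182 CPM in +/+ members, with 53 of the 110 +/+ UMIs in 1 cell. Apoe, an apolipoprotein, had 99.7 CPM in fl/fl and 340 CPM in +/+, a ratio of -1.77 (-2.06 to -1.48), over 50 fl/fl and 36 +/+ members. S100a6 and Apoe were the 2 genes lower among the 3 measured of the list for B-1 and age-associated B cells, where 0 were higher. The part of other cells' transcripts in their ratios was not tested.

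**Figure D4:**
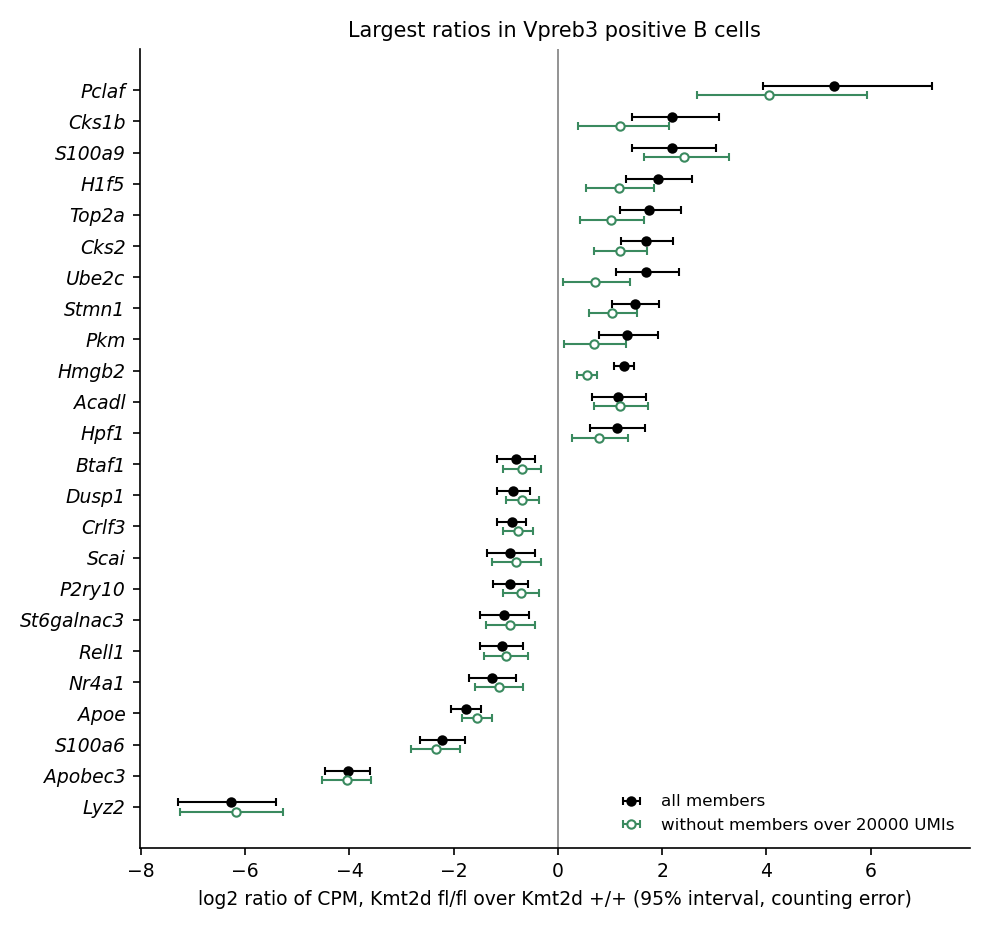
Log2 ratio of CPM in the members, fl/fl over +/+ (horizontal axis, with 95% intervals for counting error), for the 12 highest and 12 lowest genes, with all members (black) and without the fl/fl members of over 20000 UMIs (green, open). Ratios of genes of dividing cells lay nearer to 0 without those cells, for example Hmgb2 with a ratio of 1.26 with all members and 0.55 without them, while Apobec3 stayed near -4 with ratios of -4.02 and -4.05.

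Of the genes lower in fl/fl, Apobec3 had the largest ratio that was spread over many cells. It encodes a cytidine deaminase that restricts retroviruses and lies at chr15:79891659-79915906 on the plus strand. Apobec3 had 27.6 CPM in fl/fl and 448 CPM in +/+ members, a log2 ratio of -4.02 (-4.47 to -3.60). After thinning to 1500 UMIs a UMI of it was found in 3.13% of fl/fl and 47.0% of +/+ members. The same direction stood in all cells compared: -3.84 in Fcer2a positive, -3.55 in Cr2 positive and -4.08 in remaining B cells, and -2.83 in T cells. In every bin of Vpreb3 UMIs the fl/fl level was between 20.4 and 32.0 CPM and the +/+ level between 359 and 581 CPM.

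Rell1, a member of the RELT receptor family, had 64.1 CPM in fl/fl and 136 CPM in +/+ members, a ratio of -1.08 (-1.49 to -0.66). Its ratio was -1.35 in Fcer2a positive, -1.22 in Cr2 positive and -1.05 in remaining B cells and -1.69 in T cells. St6galnac3, a sialyltransferase, had 52.6 and 107 CPM, a ratio of -1.03 (-1.49 to -0.56), with -1.24 in T cells. Btaf1, an ATPase that removes TBP from DNA, had 94.2 and 165 CPM, a ratio of -0.81 (-1.17 to -0.45), with -0.57 in T cells. The ratio of each of these 3 genes was below 0 in all 5 kinds of cell compared, with St6galnac3 nearest to 0 at -0.14 (-0.38 to 0.11) in Cr2 positive cells.

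Nr4a1, Crlf3, P2ry10 and Scai had ratios further below 0 in the members than in each of the other 4 kinds of cell, with all UMIs. Nr4a1, an orphan nuclear receptor that B cell receptor signals induce, had 49.6 CPM in fl/fl and 119 CPM in +/+ members, a ratio of -1.26 (-1.72 to -0.80). Its ratio was -0.12 (-0.43 to 0.19) in Fcer2a positive cells and -0.02 (-0.07 to 0.03) in T cells, so the intervals did not overlap. It was -0.16 in Cr2 positive cells and -0.61 (-1.06 to -0.15) in remaining B cells, where the interval overlapped that of the members. With every member thinned to 2000 UMIs, so that cells weigh alike, the ratio of Nr4a1 in the members was -0.50, nearer to 0 than that in remaining B cells. Crlf3, a cytokine receptor-like protein, had 153 and 283 CPM, a ratio of -0.89 (-1.16 to -0.61), against -0.32 in Fcer2a positive, 0.00 in Cr2 positive and 0.11 in remaining B cells and 0.16 in T cells. P2ry10, a G protein-coupled receptor of lymphocytes, had 101 and 190 CPM, a ratio of -0.92 (-1.25 to -0.57), against -0.46 in Fcer2a positive, -0.16 in Cr2 positive and 0.11 in remaining B cells and 0.22 in T cells. Scai, a transcription cofactor, had 57.1 and 107 CPM, a ratio of -0.91 (-1.36 to -0.45), against -0.02 in Fcer2a positive, -0.44 in Cr2 positive and -0.20 in remaining B cells and -0.16 in T cells. All of these genes were named because their ratios in the members were among the lowest of the measured genes. Nr4a1 and Scai reached 100 CPM in the +/+ members only. Ratios nearer to 0 in the other cells were therefore partly set by that choice. The comparison, with its intervals, cannot show whether the ratios are particular to the members. These differences between classes were not tested across replicates.

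Dusp1, a phosphatase of MAP kinases, had 120 CPM in fl/fl and 218 CPM in +/+ members, a ratio of -0.86 (-1.17 to -0.54). It was at -1.19 in Cr2 positive, -1.11 in remaining B cells and -0.98 in T cells, and at 0.02 (-0.18 to 0.23) in Fcer2a positive cells. Of the 18 measured immediate-early and stress genes 2 were lower (Nr4a1 and Dusp1) and 0 higher, beside 2.88% lower and 4.61% higher over all measured genes, with a median of -0.27. Fos, a subunit of the AP-1 factor, had 454 and 679 CPM, a ratio of -0.58 (-0.75 to -0.41).

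**Figure D5:**
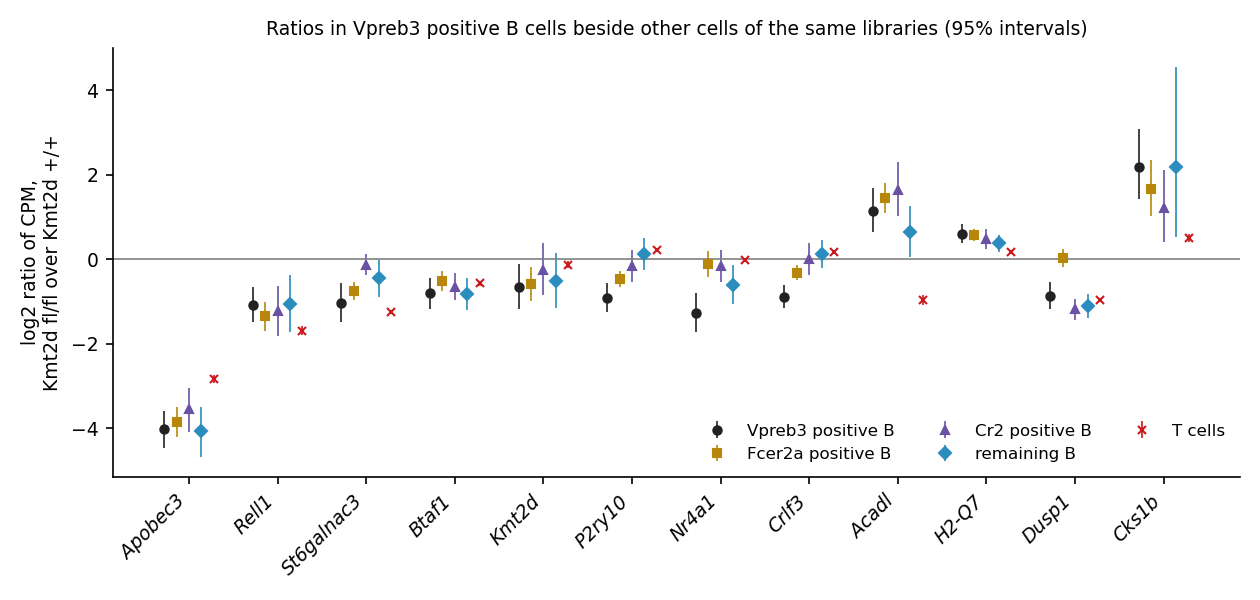
Log2 ratio of CPM, fl/fl over +/+ (vertical axis, with 95% intervals for counting error), of 12 genes in Vpreb3 positive, Fcer2a positive, Cr2 positive and remaining B cells and in T cells of the same libraries; the genes were picked after their values were seen. Apobec3 and Rell1 were below 0 in all 5, Nr4a1 was at -1.26 in Vpreb3 positive cells and -0.02 in T cells, and Acadl was at 1.15 in Vpreb3 positive cells and -0.96 in T cells.

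Of 16 measured genes of antigen presentation 1 was past the fold (Ciita, lower), with a median of -0.36 against -0.04 over all measured genes. Ciita, the master regulator of class II genes, had 80.2 CPM in fl/fl and 137 CPM in +/+ members, a ratio of -0.78 (-1.17 to -0.37). Cd74, the invariant chain, had 6138 and 8148 CPM, a ratio of -0.41, and H2-Ab1, a class II chain, 1538 and 2053 CPM, a ratio of -0.42. Tap1, a peptide transporter of the class I pathway, was at -0.55, and the class I genes H2-K1 and H2-D1 were at 0.22 and 0.07. H2-Aa had 2048 CPM in fl/fl and 2592 CPM in +/+ members. In the members with 6 or more Vpreb3 UMIs, H2-Aa was at 1458 CPM in fl/fl and 1399 CPM in +/+, and in those with 1 UMI at 3071 and 3502 CPM. Members with 6 or more Vpreb3 UMIs were 129 of the 383 in fl/fl and 28 of the 116 in +/+, and the part of that difference in the class II ratios was not tested.

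Counts for the signalling lists stood beside 4.61% higher and 2.88% lower over all measured genes, and 1 gene of a list this short is near that share. Of 21 measured genes of the B cell receptor complex and its signalling 1 was lower (Itpkb, an inositol kinase, with a ratio of -0.70) and 0 higher, with a median of -0.19. Of 8 measured genes of BAFF and survival signalling 1 was lower, Birc3, an inhibitor of cell death, with 209 and 324 CPM and a ratio of -0.63 (-0.88 to -0.38). Tnfrsf13c, the BAFF receptor, had 302 CPM in fl/fl and 223 CPM in +/+ members, a ratio of 0.44 (0.17 to 0.72). Of 11 measured trafficking genes 2 were lower, P2ry10 and Itga4, an integrin chain with 239 and 388 CPM and a ratio of -0.70 (-0.93 to -0.47), with a median of -0.35. Of 6 measured inhibitory receptors and phosphatases 0 passed, with a median of -0.32, and of 7 measured interferon response genes 0, with a median of 0.13. Without the 9 largest cells Itpkb had a ratio of -0.55 and Birc3 of -0.44, both under the fold, while Ciita had -0.80 and Itga4 -0.63.

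Among the 10 measured follicular markers 1 was past the fold, H2-Q7, a class I gene of the Qa region, with 531 CPM in fl/fl and 349 CPM in +/+ members, a ratio of 0.61 (0.39 to 0.83). It was at 0.57 in Fcer2a positive, 0.48 in Cr2 positive and 0.37 in remaining B cells. Reads of H2-Q7 may be shared with near copies in that region, so its level is uncertain. Of the 5 measured marginal zone markers 0 passed. Of the 2 measured plasma cell genes 0 passed, and of the germinal centre and memory list none reached 100 CPM. Still, 10 fl/fl members (2.61%; 1.26 to 4.75%) and 4 +/+ members (3.45%; 0.95 to 8.59%) held UMIs of 2 or more of 6 germinal centre genes. That share was 2.30% in fl/fl and 0.82% in +/+ Fcer2a positive cells, and 0.28% and 0.40% in T cells. Of the 10 fl/fl cells 3 had over 20000 UMIs and 0 held a UMI of Cd93, Sox4 or Rag1. Their part in the summed ratios was not tested.

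Kmt2d, the targeted gene, lies at chr15:98831669-98871204 on the minus strand. It had 96 UMIs in 87 fl/fl members, 48.1 CPM, and 46 UMIs in 39 +/+ members, 76.0 CPM, a log2 ratio of -0.66 (-1.18 to -0.12). Its level in members was under the 100 CPM at which genes counted as measured. The ratio of Kmt2d was -0.59 (-0.99 to -0.20) in Fcer2a positive cells, -0.25 (-0.85 to 0.38) in Cr2 positive cells and -0.13 (-0.21 to -0.05) in T cells. Cre is expected in T cells with active Foxp3, but the T cells here were picked by Cd3 UMIs and not by Foxp3. Tags of the 3' kit can lie outside the deleted part, which the labels do not name, so this level does not check the deletion. Of the related methyltransferases and demethylases 3 were measured and 0 passed: Kmt2a had a ratio of -0.03, Kdm6a of -0.08 and Kmt2c of -0.51 (-0.80 to -0.22).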

How the data were processed

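The deposited files hold raw counts of UMIs per gene and barcode for 2 libraries, 31253 features each, with no normalization by the authors. Per the submitters' processing notes, fastp, Cell Ranger 7.1.0 and Seurat 4.1.1 were used with mm10 and GRCm38, and the cell filters behind the deposited barcodes and the counting of introns are not given in the sources used here. The deposited matrices held 63989234 UMIs in 8784 fl/fl barcodes and 53680614 UMIs in 7947 +/+ barcodes, and the filters of at least 500 genes and at most 10% mitochondrial counts left 8634 and 7790. T cells, used for comparison, had at least 3 UMIs of the Cd3 genes and 0 of Cd79a and Cd79b (6157 fl/fl and 5932 +/+ cells).

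For each class and library the UMIs of all cells were summed, and CPM is the share of that sum. Log2 ratios of CPM have exact conditional binomial intervals, levels exact Poisson intervals and shares Clopper-Pearson intervals, all at 95% and for counting error only. A gene was measured at 100 CPM or more in either group compared, and past the fold at a ratio of 1.5 with an interval excluding 1. A share or level of 0 is given with the limit of 3 counts. The interval code was tested on simulated counts. A Scrublet-type doublet score was computed for each library, with 2000 variable genes, 30 principal components, an expected rate of 6% and Otsu's threshold; it called 217 (2.51%) fl/fl and 102 (1.31%) +/+ barcodes, which were kept and left out in an alternative. Python 3.11.15, numpy 2.4.6, pandas 2.3.3, scipy 1.17.1, scikit-learn 1.9.0, scikit-image 0.26.0 and matplotlib 3.10.9 were used.

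Named genes were all markers of the rule and of the immature, follicular and marginal zone lists, the 12 highest and 12 lowest ratios by genotype among measured genes whose interval excluded 1, the 10 furthest above and below the Fcer2a positive and the Cr2 positive cells, up to 3 of each list each way, and Kmt2d. The ranked sets omit receptor variable segments, Xist, mitochondrial, ribosomal protein and Y-linked genes and gene models with provisional symbols. The members and lists were chosen with earlier results of these data known. Genes named beyond this rule (Pcna, Tuba1b, Cd74, H2-Aa, H2-Ab1 and Foxp3) were chosen for their list or after their values were seen. The protein table that was to give a Vpreb3 sequence was not used here, and its promoter is shown. Coordinates are from GENCODE M21, which held 31184 of the 31253 feature IDs. Some withheld genes, and results that need them, are not reported here.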

Additional observations from a re-analysis of the deposited data

Results flagged for a closer look

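In 2 genes the log2 ratio, fl/fl over +/+, pointed opposite ways in the Vpreb3 positive B cells and in other cells of the same 2 libraries. The difference was not tested, since each group is 1 library. S100a9 was at 2.18 in the Vpreb3 positive cells and at -6.53 in Fcer2a positive, -7.36 in Cr2 positive and -6.75 in remaining B cells, and at -2.75 in T cells. In the Vpreb3 positive cells 220 of its 224 fl/fl UMIs were in 1 cell, and without members holding 10 or more UMIs of the neutrophil and macrophage lists the ratio of S100a9 was -2.77, the direction of the other cells.

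Acadl was at 1.15 in the Vpreb3 positive cells and at -0.96 in T cells. Its level was 136 CPM in fl/fl and 61.2 CPM in +/+ Vpreb3 positive cells and 20.5 CPM in fl/fl and 39.8 CPM in +/+ T cells. Fcer2a positive cells, with a ratio of 1.44, and Cr2 positive cells, with 1.63, went with the Vpreb3 positive cells.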

How the results depend on the processing

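No paired analysis was possible because each group has 1 library and the 2 share a single replicate number. Leaving out a library was not possible for the same reason. The number of genes higher and lower in fl/fl members, 85 and 53, was 189 and 159 at a minimum of 50 CPM, 441 and 421 with no minimum and 16 and 7 at a fold of 2. It was 163 and 169 with at least 2 Vpreb3 UMIs, and, by alternatives chosen after seeing the data, 180 and 247 with at least 3 and 28 and 35 without members of over 20000 UMIs. Fewer cells at a higher Vpreb3 minimum raise the CPM that 1 UMI stands for. Scaling by the median ratio gave 109 higher and 36 lower, a mitochondrial limit of 5% 79 and 76, and thinning each member to 2000 UMIs 62 and 77. The share of the gate was 23.4% in fl/fl and 15.6% in +/+ with at least 2 Vpreb3 UMIs, and 39.9% in fl/fl and 31.3% in +/+ with up to 1 Fcer2a UMI.

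Over 68 named genes whose reported interval excluded 0 and 12 alternatives, 725 of 816 ratios stayed inside the interval of the reported value, 82 left it and 9 changed sign. With members thinned to 2000 UMIs the ratio of Cd83 was 0.32, that of Iglc3 0.17 and that of Pim1 0.24. Under alternatives chosen after seeing the data, Cd79b was at 0.028 without members of over 20000 UMIs, Agbl1 at -0.076 and H2-Oa at 0.0046 with at least 3 Vpreb3 UMIs, S100a9 at -2.77 without members holding neutrophil or macrophage UMIs, and Agbl1 at -0.055 and Vpreb3 at -0.035 with bins of Vpreb3 UMIs weighted alike. Those bins are set by Vpreb3 UMIs, so the value of Vpreb3 there was largely fixed in advance. The cause of the other changes was not tested. The 116 cells of the +/+ library set the precision, and differences between mice of 1 genotype could not be measured.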
